A study of Homo sapiens with 9 samples.

Results

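SOX and KLF genes encode the transcription factors described here: SOX4, SOX7, SOX9, SOX12, SOX17, SOX18, KLF2, KLF4, KLF6 and KLF10. They were found by gene symbol in the deposited count tables of HMEC-1 cells, an established line of immortalised human dermal microvascular endothelium. All 10 were among the 18293 genes present in both tables, 6 of them SOX and 4 KLF, and all 10 passed the filter on low counts. The genes were chosen by their symbols, from a list drawn up with the CPM and fold changes of these same libraries in view and with no threshold, so the differences of the 10 genes are given as a description, with their errors and with no p-value, and calls among them are counted but support nothing.

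Cells had been grown in MCDB131 medium with 5.5 mM glucose and treated for 16 h. One group received AMI-5 at 100 µM, another AMI-1 at 100 µM, and the control group received the solvent DMSO alone, which both compounds also carried. AMI-5 is a tetrabrominated xanthene dye and AMI-1 a urea that joins a pair of hydroxynaphthalene sulfonic acids, and the study used both to inhibit methyltransferases. Poly-A RNA was sequenced from 3 libraries per group, 9 in all, every one from the same cell line, and the labels leave unsaid whether these were separate cultures. Any p-value below therefore measures only the spread between these libraries.

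SOX proteins bind DNA through a high-mobility-group box that bends the helix, and KLF proteins bind GC-rich and CACCC elements through zinc fingers. SOX7, SOX17 and SOX18 form the SoxF group, known for roles in arterial, venous and lymphatic specification of endothelium. KLF2 and KLF4 are induced in endothelium by laminar shear stress through the kinases MEKK3, MEK5 and ERK5 and the MEF2 factors, and they drive anti-inflammatory and anti-thrombotic genes.

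Promoter letters are shown for a pair of KLF and a pair of SOX genes. Within each pair, levels ran together across libraries once the mean of each replicate number was subtracted (described further on). RefSeq windows (GRCh38.p14) of the 250 bases before the annotated start were at hand for KLF2, KLF4, KLF6, SOX4 and SOX12, 5 of the 10 genes, and SOX7, SOX9, SOX17, SOX18 and KLF10 are only named. Capitals mark the MEF2 element in KLF2 (chr19:16324576-16324825, plus strand), and GGGCGG on either strand in KLF4 (chr9:107489770-107490019, minus strand), SOX12 (chr20:325302-325551, plus strand) and SOX4 (chr6:21593501-21593750, plus strand), where it was not found.
KLF2: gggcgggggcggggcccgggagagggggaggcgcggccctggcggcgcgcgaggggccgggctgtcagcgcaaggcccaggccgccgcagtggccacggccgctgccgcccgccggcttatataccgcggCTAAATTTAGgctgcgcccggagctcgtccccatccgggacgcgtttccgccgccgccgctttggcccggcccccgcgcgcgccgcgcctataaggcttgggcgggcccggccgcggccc
KLF4: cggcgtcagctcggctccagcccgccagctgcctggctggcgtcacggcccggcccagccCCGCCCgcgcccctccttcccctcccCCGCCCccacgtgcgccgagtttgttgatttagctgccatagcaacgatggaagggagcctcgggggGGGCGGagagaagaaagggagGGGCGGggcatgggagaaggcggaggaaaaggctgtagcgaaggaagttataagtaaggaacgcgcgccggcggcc
SOX12: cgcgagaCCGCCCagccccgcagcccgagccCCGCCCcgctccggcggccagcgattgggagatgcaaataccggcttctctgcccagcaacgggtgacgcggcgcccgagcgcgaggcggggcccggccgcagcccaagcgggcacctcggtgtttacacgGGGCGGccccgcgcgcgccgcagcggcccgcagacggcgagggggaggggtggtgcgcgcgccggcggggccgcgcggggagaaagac
SOX4: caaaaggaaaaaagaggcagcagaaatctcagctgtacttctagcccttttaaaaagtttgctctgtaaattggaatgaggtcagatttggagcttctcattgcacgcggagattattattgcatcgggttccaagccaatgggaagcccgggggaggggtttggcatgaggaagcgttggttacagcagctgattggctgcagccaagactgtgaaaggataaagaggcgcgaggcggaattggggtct

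The KLF2 window held 1 MEF2 element, at -120 to -111 from the start, which did not overlap a GGGCGG. Among 27305 promoter windows of the same length, 146 held that element, 0.535%, with both strands searched. GGGCGG is the core of the GC box that SP and KLF proteins bind. It occurred 4 times in KLF2, 4 times in KLF4, 3 times in SOX12 and 2 times in KLF6, and was not found in SOX4. Of all windows, 42.3% held at least 1 copy, which is a share of windows and not a copy number. No share was taken among windows of like GC content. GC content was 80% in the KLF2 window and 79.2% in that of SOX12, with 41 and 42 CpG dinucleotides, 72.4% in KLF6 and 69.2% in KLF4. SOX4 stood apart with 48.8% and 8 CpG, against medians of 58% and 11 over all windows. A match describes these letters and is not evidence of binding.

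Total counts per library ran from 14451343 to 24691456. The replicate number took 77.2% of the total sum of squares and the treatment 11.1%, and same-numbered libraries deviated together. Counts were fitted with replicate number as a block because the genes are described in pairs by number. That same-numbered libraries deviate together was also known from earlier results of these data when the block was chosen. Libraries numbered 2 stood apart along transcript GC content: across 14761 genes their log2 CPM (CPM, counts scaled to library size with TMM) minus the mean of numbers 1 and 3 correlated with GC at -0.805 in control cells. Of 12 endothelial markers 11 were in the tables, PECAM1 being the one that was not, and their summed level was 797 to 1053 CPM with AMI-5, 1014 to 1270 CPM with AMI-1 and 948 to 1326 CPM in control. Defining leukocyte and epithelial genes (PTPRC, CD3E, EPCAM, KRT5) and all 4 chondrocyte markers were not in the tables, whereas 6 of 7 smooth muscle and pericyte markers and 4 of 6 fibroblast markers were. Of 6 leukocyte markers 2 (CD14 and CD68) were in the tables and summed to 31.7 to 49.0 CPM with AMI-5, 33.7 to 43.9 CPM with AMI-1 and 28.8 to 42.2 CPM in control. Of 6 epithelial markers 1 (CDH3) was, at 1.77 to 2.11, 1.30 to 1.89 and 1.09 to 1.86 CPM with AMI-5, with AMI-1 and in control. Fibroblast markers, mostly collagen I, summed to 2402 to 3100 CPM with AMI-5, 3050 to 4076 CPM with AMI-1 and 2943 to 4378 CPM in control.

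Per kilobase of the longest transcript, KLF6 was the most abundant of the 10 genes in control cells, at 60.7 ± 7.33 CPM per kb (SD, n = 3), followed by KLF2 at 38.3 ± 15.3. KLF10 (13.1 ± 1.88), SOX12 (11.7 ± 4.82) and KLF4 (8.17 ± 1.18) came next in CPM per kb. KLF10 and SOX12 overlapped across control libraries, as did SOX12 and KLF4. SOX7 (4.52 ± 0.17), SOX9 (4.14 ± 0.87) and SOX4 (3.85 ± 0.08) followed, each overlapping its neighbour in this order. SOX17 (1.94 ± 0.46) and SOX18 (1.73 ± 0.66) were lowest and overlapped each other. In CPM without length, the control mean of KLF6 lay at percentile 97 of the genes tested and that of SOX18 at percentile 24.2.

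**Figure D1:**
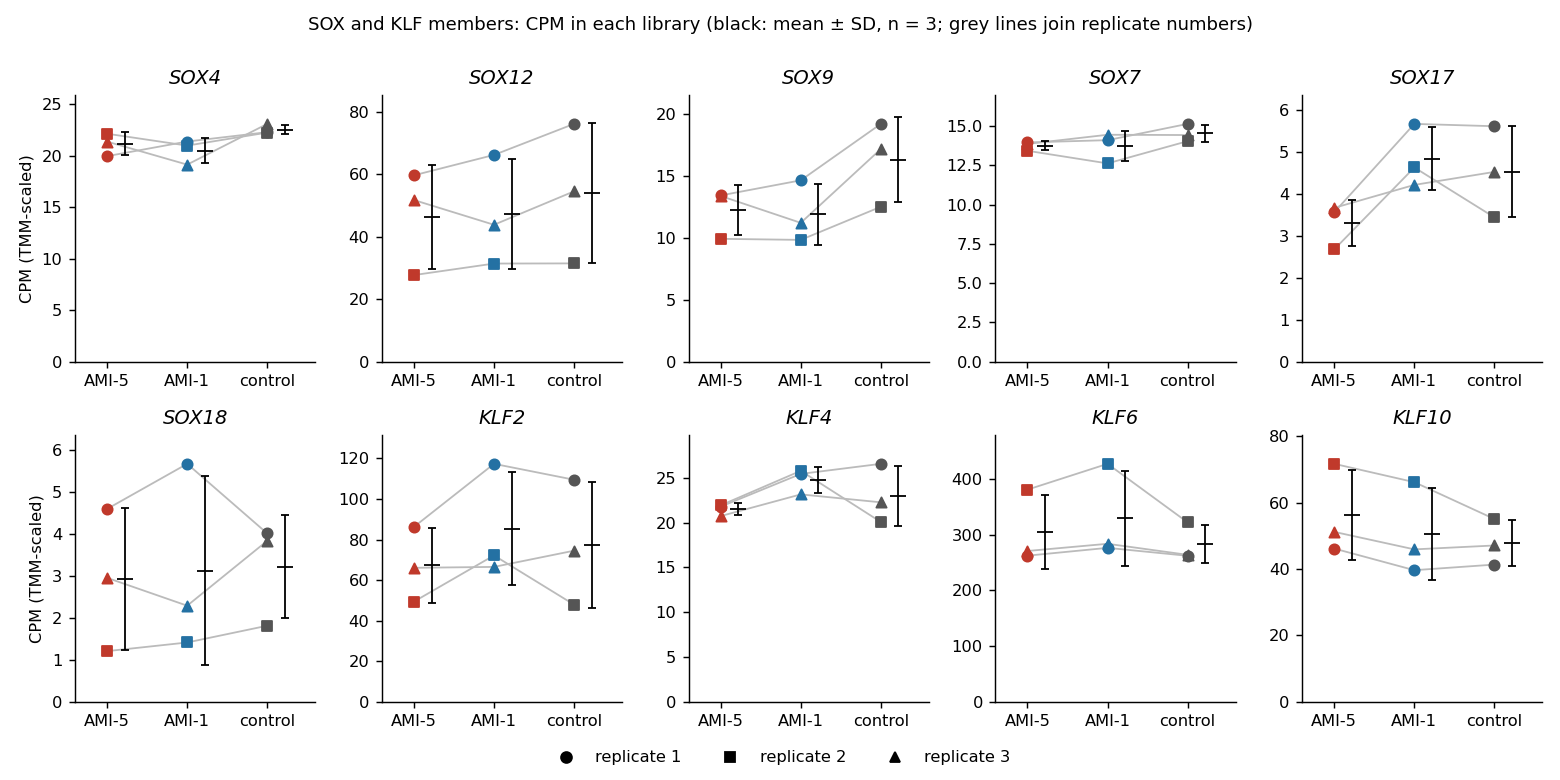
CPM of each of the 10 genes in AMI-5, AMI-1 and control libraries. Symbols give the replicate number, grey lines join libraries of the same number, and black bars give the mean ± SD of 3 libraries. SOX9 is lower in each AMI-5 and AMI-1 library than in the control of its number. Within the control group, replicate 2 lies lowest in every gene but KLF6 and KLF10, where it lies highest.

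SOX9 (ENSG00000125398.5, chromosome 17), the SoxE factor that directs cartilage formation and is also expressed in progenitors of several epithelia, fell by 24.6% with AMI-5 and fell by 27.5% with AMI-1, each relative to control. Its level was 13.4, 9.93 and 13.4 CPM with AMI-5 (12.3 ± 2.01, SD, n = 3), 14.7, 9.84 and 11.2 CPM with AMI-1 (11.9 ± 2.48) and 19.2, 12.5 and 17.2 CPM in control (16.3 ± 3.43), in the order of replicates 1, 2 and 3. Every treated library lay below the control of its number, while the groups overlapped because control replicate 2 was low. Between AMI-5 and control the log2 fold change was -0.41 ± 0.10 (SE, 95% interval -0.61 to -0.21), and -0.51, -0.33 and -0.36 in the 3 pairs. Between AMI-1 and control it was -0.46 ± 0.10 (-0.67 to -0.26), with pairs at -0.39, -0.34 and -0.61. AMI-5 and AMI-1 differed from each other by 0.06 ± 0.10 (-0.15 to 0.26). In bulk RNA, fewer cells that express a gene and less RNA per cell cannot be told apart.

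SOX9 was the 1 of 10 genes past the threshold (adjusted p under 0.05 over all 18284 genes tested, edgeR) with AMI-5, where 10.9% of all genes were called, and again the 1 of 10 with AMI-1, where 0.41% were. Leaving out control library 1 or 3, or AMI-5 library 1 or 2, ended the AMI-5 call (log2 fold change -0.41 to -0.33). The AMI-1 call was lost when control library 1, 2 or 3, AMI-1 library 1 or 3, or AMI-5 library 1 or 2 was left out (-0.52 to -0.35). It was also lost with DESeq2's Wald test or with only the 6 libraries compared. Without replicate number as a block both calls were lost, by edgeR (-0.41 and -0.46, each with an SE of 0.22) and by DESeq2's Wald test. With correction for transcript GC content both calls stood, at -0.37 and -0.45. The reference annotation places the antisense gene SOX9-AS1 over SOX9, and counts of unknown strand cannot separate the pair.

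SOX17 (ENSG00000164736.5, chromosome 8), the SoxF factor known for arterial identity, had the lowest log2 fold change of the 10 genes with AMI-5 and lay near control with AMI-1. It had 3.57, 2.68 and 3.68 CPM with AMI-5 (3.31 ± 0.54), 5.68, 4.64 and 4.22 CPM with AMI-1 (4.85 ± 0.75) and 5.62, 3.45 and 4.53 CPM in control (4.53 ± 1.09). All AMI-5 libraries lay below all AMI-1 libraries, and AMI-5 overlapped control through control replicate 2. The log2 fold change was -0.44 ± 0.15 (-0.76 to -0.11) for AMI-5 against control, lower in 3 of 3 pairs, and 0.09 ± 0.15 (-0.22 to 0.39) for AMI-1 against control.

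Set directly against AMI-1, AMI-5 gave -0.53 ± 0.15 for SOX17 (-0.84 to -0.21), with pairs at -0.65, -0.77 and -0.20. None of these differences passed the threshold, although with GC correction the direct one did, at -0.44. Under other settings the direct difference was called in 5 of 17 and the AMI-5 difference from control in 5 of 18, and both stayed below 0 in every one of them. SOX17 rests on 40 to 105 counts per library.

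SOX18 (ENSG00000203883.5, chromosome 20), the SoxF factor needed for the onset of lymphatic development, was too thinly counted to place. It had 4.60, 1.21 and 2.96 CPM with AMI-5, 5.68, 1.41 and 2.29 CPM with AMI-1 and 4.02, 1.81 and 3.84 CPM in control, from 18 to 98 counts per library. Replicate 2 was the lowest of each group, and the groups overlapped throughout. Differences from control were -0.19 ± 0.20 (-0.62 to 0.23) with AMI-5 and -0.17 ± 0.20 (-0.60 to 0.26) with AMI-1, with pairs on both sides of 0, and AMI-5 minus AMI-1 was -0.02 ± 0.21. At this depth a change of the size seen in SOX9 lay within both intervals.

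SOX7 (ENSG00000171056.6, chromosome 8), the third SoxF gene, varied least of the SOX genes with AMI-5. Its level was 13.95, 13.42 and 13.86 CPM with AMI-5 (13.7 ± 0.28), 14.1, 12.6 and 14.4 CPM with AMI-1 (13.7 ± 0.97) and 15.13, 14.03 and 14.42 CPM in control (14.5 ± 0.56). The AMI-5 libraries lay just below the control libraries without overlap, at a log2 fold change of -0.08 ± 0.09 (-0.27 to 0.11), and with AMI-1 the difference was also -0.08 (-0.27 to 0.11). SOX7 overlaps PINX1 on the same strand in the reference annotation, so its counts may include reads of PINX1. PINX1 had 11.7, 10.8 and 11.9 CPM on average with AMI-5, with AMI-1 and in control.

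SOX12 (ENSG00000177732.6, chromosome 20), a single-exon SoxC gene, had 59.6, 27.7 and 51.7 CPM with AMI-5 (46.3 ± 16.6), 66.1, 31.4 and 43.8 CPM with AMI-1 (47.1 ± 17.6) and 76.05, 31.4 and 54.5 CPM in control (54.0 ± 22.3). Replicate 2 was lowest in each group, and the groups overlapped. The log2 fold change was -0.20 ± 0.08 (-0.37 to -0.04) with AMI-5, lower in 3 of 3 pairs, and -0.18 ± 0.08 (-0.35 to -0.02) with AMI-1. GC correction brought the AMI-5 difference to -0.03 and that with AMI-1 to -0.14. AMI-5 against AMI-1 gave -0.02 ± 0.08 (-0.19 to 0.15). An antisense transcript, RP5-1103G7.4, overlaps SOX12 and had 1.37, 1.80 and 1.45 CPM on average with AMI-5, with AMI-1 and in control.

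SOX4 (ENSG00000124766.4, chromosome 6), the other single-exon SoxC gene, was lower than control in all 6 treated libraries by a small margin. Its level was 19.96, 22.1 and 21.4 CPM with AMI-5 (21.2 ± 1.10), 21.4, 21.0 and 19.1 CPM with AMI-1 (20.5 ± 1.20) and 22.3, 22.3 and 23.1 CPM in control (22.5 ± 0.48). Neither treated group overlapped control, yet the log2 fold changes were -0.10 ± 0.08 (-0.27 to 0.08) and -0.15 ± 0.08 (-0.32 to 0.03) and were not called. Ranges did not overlap in 2 of 10 genes with AMI-5 (SOX4 and SOX7) and in 1 of 10 with AMI-1 (SOX4), against 7.35% and 4% of all genes. An antisense gene, AL512380.2, overlaps SOX4 in the reference annotation.

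KLF2 (ENSG00000127528.5, chromosome 19), the shear-stress factor that maintains endothelial nitric oxide synthase and thrombomodulin, lay on opposite sides of control with the compounds. It had 86.2, 49.4 and 66.1 CPM with AMI-5 (67.2 ± 18.5), 117, 72.2 and 66.5 CPM with AMI-1 (85.4 ± 27.9) and 109.5, 47.9 and 74.5 CPM in control (77.3 ± 30.9). The spread between replicate numbers exceeded that between treatments, and the groups overlapped. Differences from control were -0.17 ± 0.10 (-0.38 to 0.04) with AMI-5 and 0.16 ± 0.10 (-0.04 to 0.37) with AMI-1.

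AMI-5 set against AMI-1 gave -0.34 ± 0.10 (-0.54 to -0.13) for KLF2, with pairs at -0.44, -0.55 and -0.01, so that replicate 3 showed almost none of it. This was not called in the fit of 9 libraries and was called in 4 of 17 other settings. GC correction moved the 3 differences to 0.04 with AMI-5, 0.21 with AMI-1, which was then called, and -0.17 between the compounds. Without the 3 libraries numbered 2, the AMI-1 difference was -0.03.

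KLF4 (ENSG00000136826.9, chromosome 9), the pluripotency factor that shares many endothelial targets with KLF2, followed it at smaller size. It had 21.8, 21.9 and 20.7 CPM with AMI-5 (21.5 ± 0.65), 25.5, 25.8 and 23.2 CPM with AMI-1 (24.8 ± 1.43) and 26.6, 20.1 and 22.3 CPM in control (22.98 ± 3.31). All AMI-5 libraries lay below all AMI-1 libraries, and control spanned both. Log2 fold changes were -0.09 ± 0.09 (-0.28 to 0.09) for AMI-5 against control, 0.11 ± 0.09 (-0.07 to 0.30) for AMI-1 against control and -0.21 ± 0.09 (-0.39 to -0.02) for AMI-5 against AMI-1, the last lower in 3 of 3 pairs and not called. Ranges of AMI-5 and AMI-1 were apart in 2 of 10 genes, SOX17 and KLF4, against 7.49% of all genes.

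KLF6 (ENSG00000067082.10, chromosome 10), a broadly expressed zinc-finger factor induced after vascular injury, had 262, 381 and 271 CPM with AMI-5 (304 ± 66.1), 276, 427 and 283 CPM with AMI-1 (329 ± 85.0) and 262, 322 and 264 CPM in control (282 ± 34.1). Replicate 2 was the highest of each group and also gave the widest pair differences. The log2 fold change was 0.09 ± 0.06 (-0.04 to 0.22) with AMI-5 and 0.20 ± 0.06 (0.07 to 0.32) with AMI-1, above 0 in 3 of 3 pairs each and not called. Between the compounds it was -0.10 ± 0.06 (-0.23 to 0.02).

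KLF10 (ENSG00000155090.10, chromosome 8), an early gene of TGF-beta signalling that represses SMAD7, had 46.1, 71.7 and 51.2 CPM with AMI-5 (56.3 ± 13.5), 39.6, 66.1 and 45.9 CPM with AMI-1 (50.5 ± 13.9) and 41.3, 55.0 and 47.1 CPM in control (47.8 ± 6.89). Each AMI-5 library lay above the control and the AMI-1 library of its number, although the groups overlapped. The log2 fold change was 0.22 ± 0.07 (0.07 to 0.37) with AMI-5, not called in the fit of 9 libraries but called in 6 of 18 other settings, GC correction among them, where it was also 0.22. With AMI-1 it was 0.06 ± 0.07 (-0.09 to 0.21), and between the compounds 0.16 ± 0.07 (0.01 to 0.31).

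**Figure D2:**
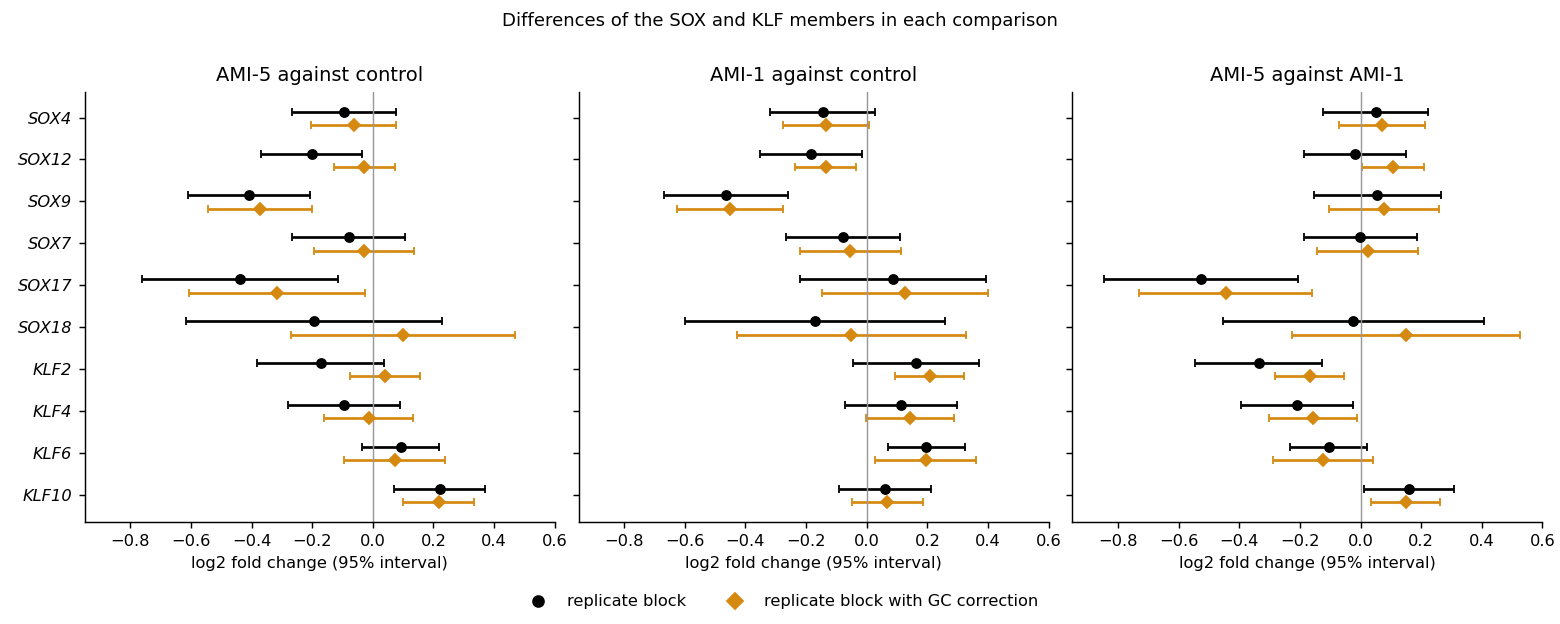
Log2 fold changes of the 10 genes with their 95% intervals in each comparison, from the blocked fit (black circles) and from the blocked fit with GC correction (orange diamonds). SOX9 lies below 0 against control with both compounds under either fit, and SOX17 lies at -0.44 against control with AMI-5 and at 0.09 with AMI-1.

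Over the 10 genes, 8 lay below 0 with AMI-5 and 2 above, with a median log2 fold change of -0.13 against -0.005 over all genes tested. With AMI-1, 5 lay below and 5 above, at a median of -0.009 against -0.002. All 6 SOX genes were below 0 with AMI-5 (median -0.20), and 5 of 6 with AMI-1 (-0.16). All 4 KLF genes were above 0 with AMI-1 (median 0.14), against 2 of 4 with AMI-5. The comparisons share their control libraries. Between AMI-5 and AMI-1, 3 of the 10 genes were above 0 and 7 below, and 0 of 10 were called by edgeR or DESeq2, where 5.1% of all genes were called by edgeR. At an unadjusted p under 0.05 the number was 4 of 10, against 3557 of all 18284 genes.

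Transcript GC content ran from 45.9% in KLF6 to 69.4% in SOX18, with a median of 53.6% against 48.1% over all genes. Across 14761 genes the log2 fold change correlated with GC content at -0.504 with AMI-5 and -0.292 with AMI-1, as a description over genes that are not independent. The GC-rich genes SOX12 (62.0%), KLF2 (65.2%) and SOX18 lay close to the median of genes of like GC content with AMI-5, and SOX9 (51.03%), SOX17 (58.3%) and KLF10 (47.2%) lay outside the middle 50% of theirs. With GC correction the median over the 10 genes was -0.02 with AMI-5 and over the 6 SOX genes -0.05. The corrected fit called 2 of the 10 genes with AMI-5 (SOX9 and KLF10), where it called 13.6% of all genes, 2 with AMI-1 (SOX9 and KLF2), against 3.41%, and 1 between the compounds (SOX17), against 11.8%. In control cells replicate 2 differed from the mean of 1 and 3 by -1.07 in SOX18, -1.03 in SOX12 and -0.91 in KLF2 on the log2 scale, and by 0.29 in KLF6 and 0.32 in KLF10.

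**Figure D3:**
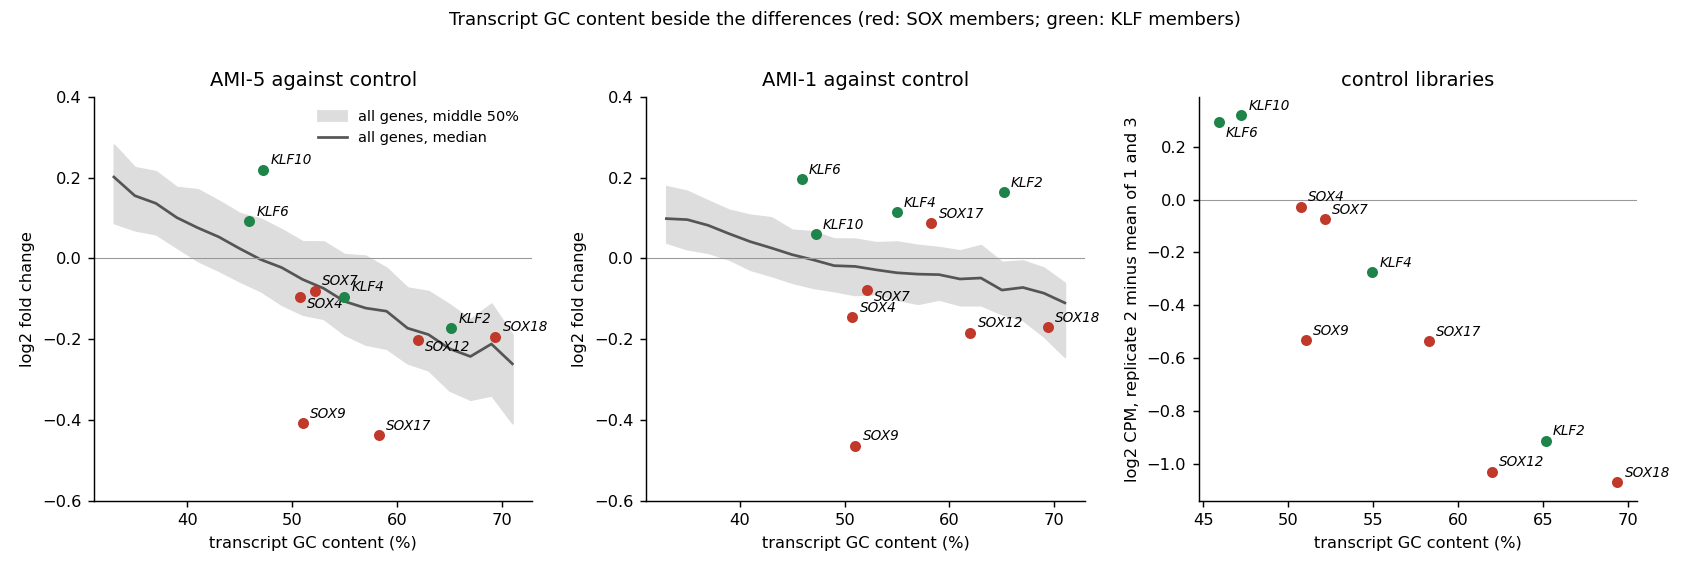
Transcript GC content against the log2 fold change with AMI-5 (left) and with AMI-1 (middle), and against the difference of replicate 2 from replicates 1 and 3 in control cells (right). Points are the 10 genes (SOX red, KLF green), the line is the median and the band the middle 50% of all genes in bins of GC content. SOX9 lies below the band with both compounds, at -0.41 and -0.46.

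After the mean of each replicate number was subtracted, SOX17 and KLF2 ran together across the 9 libraries at a Pearson r of 0.89, KLF2 and KLF4 at 0.88, SOX4 and SOX9 at 0.89, SOX9 and SOX12 at 0.87 and SOX4 and SOX12 at 0.78. KLF6 and SOX7 ran opposite at -0.71. Outside the list, the 3 genes most like SOX9 were FJX1 (0.997), DUS3L (0.996) and CHST7 (0.988), TCIRG1 (0.997) and RELA (0.993) were among the 3 most like SOX17, and those most like KLF2 were AHNAK2 (0.996), MICAL1 (0.987) and ANKRD13D (0.983). KLF4 was nearest to PSEN2 (0.966), KLF6 to TCN2 (0.972), KLF10 to MAP3K8 (0.979), SOX4 to AC099522.1 (0.988), SOX12 to FAM83G (0.997), SOX7 to MTMR12 (0.973) and SOX18 to SLC35C2 (0.982). These values describe 9 libraries that share 3 replicate numbers and 3 treatments, and they carry no p-value, being the highest among all genes compared.

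Related genes were taken from lists of the pathways around SOX and KLF factors. The lists were chosen with earlier results of these data known, so counts of calls in them are a description. Their counts with AMI-5 stand beside 10.9% of all genes called, 1373 lower and 629 higher, and those with AMI-1 beside 0.41%. Among other SOX genes, SOX6, SOX13 and SOX15 were the 3 of 13 tested, and 0 of them were called in any comparison by edgeR or DESeq2, with 0 at an unadjusted p under 0.05. Of 22 other KLF and SP genes 13 were tested. KLF9, a glucocorticoid-responsive relative, rose with AMI-1 to 75.6 CPM, against 55.9 CPM in control (log2 fold change 0.46 ± 0.07, adjusted p = 0.00463, edgeR), and was lower with AMI-5 than with AMI-1 (-0.37, adjusted p = 0.00539). Leaving out control library 3 or AMI-1 library 1 ended the AMI-1 call (0.43 to 0.44, adjusted p up to 0.116), and leaving out library 1 of AMI-1 or of AMI-5 ended the direct one (up to 0.108). With AMI-5, KLF16 (-0.37, adjusted p = 0.0206) and SP2 (-0.23, adjusted p = 0.0462) fell and SP4 rose (0.35, adjusted p = 0.0262), and GC correction ended the first pair of calls (adjusted p of 0.112 and 0.123). SP2 and SP4 also lost theirs with DESeq2's Wald test and without the libraries numbered 2. Each of these 3 calls was also lost when library 1 or 3 of control, or library 1 or 2 of AMI-5, was left out (up to 0.349), SP2 and SP4 also without control library 2 and SP2 without AMI-1 library 1.

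Upstream of KLF2 and KLF4, 3 of 17 genes fell with AMI-5 and 0 rose, where 10.9% of all genes were called. They were PIEZO1, a mechanosensitive channel of endothelium, at 297 CPM with AMI-5 against 395 CPM in control (-0.39 ± 0.07, adjusted p = 0.00172), HDAC7, which represses MEF2 (-0.33, adjusted p = 0.00864), and CCM2, of the cerebral cavernous malformation complex that restrains MEKK3 (-0.27, adjusted p = 0.0166). GC correction brought PIEZO1 to -0.18 (adjusted p = 0.00183), HDAC7 to -0.21 (adjusted p = 0.000681) and CCM2 to -0.19 (adjusted p = 0.00391), all still called. Leaving out library 1 of control or of AMI-5 ended the PIEZO1 call (-0.30, adjusted p up to 0.066). The calls of HDAC7 and CCM2 were lost when library 1 or 3 of control, or library 1 or 2 of AMI-5, was left out (up to 0.173). With AMI-1, 0 of 17 were called by edgeR or DESeq2, and 3 had an unadjusted p under 0.05. GC correction called 3.41% of all genes with AMI-1. Under it 1 of the 17 rose, the MEF2 factor MEF2A (0.25, adjusted p = 0.00221), and 1 fell, HDAC7 (-0.15, adjusted p = 0.0276). Among 17 tested targets of KLF2 and KLF4, 1 fell and 0 rose with AMI-5, against 10.9% of all genes called. With AMI-1, 1 rose and 0 fell, against 0.41%. Between AMI-5 and AMI-1, 1 was called higher and 3 lower, against 5.1%. TXNIP rose with AMI-1 (0.38, adjusted p = 0.0129, edgeR) and was lower with AMI-5 than with AMI-1 (-0.32, adjusted p = 0.0102). THBD, which encodes thrombomodulin, had -0.17 with AMI-5 and 0.05 with AMI-1 and was called in neither (adjusted p of 0.103 and 0.835). The AMI-1 call of TXNIP was lost in 5 of the 9 fits without 1 library (adjusted p up to 0.145). Those left out any control library, AMI-1 library 1 or AMI-5 library 1. It was also lost without the libraries numbered 2. The direct call of TXNIP was lost without AMI-1 library 2 or AMI-5 library 1 or 2 (up to 0.0906).

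Among 14 tested targets and partners of SoxF factors, 4 fell and 1 rose with AMI-5, against 10.9% of all genes called, and 0 were called with AMI-1 by edgeR or DESeq2, with 0 at an unadjusted p under 0.05. RASIP1, needed for vascular lumen formation, had 13.5 CPM with AMI-5 against 19.2 CPM in control (-0.49 ± 0.10, adjusted p = 0.00517), and -0.24 with GC correction (adjusted p = 0.0344). VE-cadherin (CDH5, -0.28, adjusted p = 0.008), the venous factor NR2F2 (-0.22, adjusted p = 0.0203) and ERG (-0.22, adjusted p = 0.0426) were the others that fell, and the arterial ligand EFNB2 rose (0.20, adjusted p = 0.0474). All 5 calls were lost when library 1 or 3 of control or library 1 of AMI-5 was left out, and those other than RASIP1 also without AMI-5 library 2, NR2F2 further without AMI-1 library 1 (adjusted p up to 0.316). EFNB2 and ERG kept theirs in only 2 of the 9 fits without 1 library, those without AMI-1 library 2 or 3. Both also lost them with DESeq2's Wald test and without the libraries numbered 2, and EFNB2 with DESeq2's size factors. CDH5 and ERG also belong to the endothelial markers, of which 5 of 11 fell and 1 rose with AMI-5. The part of this in the SOX17 difference was not tested. NOTCH1, an arterial receptor, had -0.27 with AMI-5 (adjusted p = 0.0765).

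Of 17 early TGF-beta genes, the class KLF10 belongs to, 1 rose and 2 fell with AMI-5, against 10.9% of all genes called, and 1 fell with AMI-1. LTBP2 fell with both, by 0.24 with AMI-5 and by 0.38 with AMI-1 on the log2 scale (adjusted p of 0.0213 and 0.0066), and with GC correction by 0.13 and 0.35 (adjusted p of 0.0429 and 1.81e-05). PMEPA1 fell (-0.40, adjusted p = 0.0122) and SKIL rose (0.31, adjusted p = 0.0176) with AMI-5, and GC correction ended the call of SKIL (0.12, adjusted p = 0.102). Each of the 4 calls was lost when control library 1 was left out, and the AMI-5 ones also when control library 3 or AMI-5 library 1 or 2 was (adjusted p up to 0.247). Both LTBP2 calls were also lost without AMI-1 library 1. Of 20 immediate early genes tested, 2 rose and 6 fell with AMI-5, FOS (1.04, adjusted p = 0.0173) and FOSL1 (-0.37, adjusted p = 0.003, and -0.23 with GC correction, adjusted p = 0.000489) among them, against 10.9% of all genes called. With AMI-1, 0 were called by edgeR (1 by DESeq2, 5 at an unadjusted p under 0.05). With GC correction, which called 3.41% of all genes with AMI-1, MYC fell (-0.28, adjusted p = 0.000404). FOS averaged only 4.05 CPM with AMI-5 and 1.81 CPM in control, and its log2 fold change was 0.50 without control library 2. Its call was lost there, without AMI-5 library 1 or 2 (adjusted p up to 0.222), without the libraries numbered 2, with only the 6 libraries compared and in the AMI-5 table as deposited. DESeq2 with the block gave FOS no adjusted p. The call of FOSL1 was lost without control library 3 or AMI-5 library 1 (up to 0.0714).

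Among 17 corepressors, modifiers and ubiquitin ligases of SOX and KLF proteins, 3 fell with AMI-5 and 0 rose, against 10.9% of all genes called. SIN3B, a scaffold of histone deacetylase complexes, had 49.8 CPM with AMI-5, 65.9 CPM with AMI-1 and 67.0 CPM in control. It fell against control (-0.43 ± 0.07, adjusted p = 0.00106) and against AMI-1 (-0.41, adjusted p = 0.00128), and both calls stood in all 9 fits without 1 library and with GC correction (-0.28 and -0.30). CTBP1 (-0.24, adjusted p = 0.0225) and PRMT5 (-0.20, adjusted p = 0.0285) were the others. The call of CTBP1 ended in 5 of those 9 fits (library 1 of any group, control 3 or AMI-5 2 left out) and that of PRMT5 in 7 (all but AMI-1 library 2 or 3), with adjusted p up to 0.281, and CTBP1 also lost its call with GC correction (-0.09, adjusted p = 0.132) and PRMT5 without the libraries numbered 2. Of 13 cartilage targets of SOX9, 6 were tested and 0 were called in any comparison by edgeR or DESeq2, with 0, 0 and 1 at an unadjusted p under 0.05 for AMI-5, AMI-1 and the direct comparison, and ACAN and COL2A1 were not in the tables.

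Median log2 fold changes of these lists with AMI-5 were 0.18 for the cartilage targets of SOX9 (5 of 6 above 0, and 0.08 with GC correction), 0.02 for other SOX genes, 0.02 for other KLF and SP genes, -0.04 for the route to KLF2 and KLF4, -0.10 for their targets, -0.13 for SoxF targets and partners, -0.13 for TGF-beta genes, -0.14 for immediate early genes and -0.04 for corepressors and modifiers, against -0.005 over all genes. GC correction brought that of the immediate early genes to -0.05 and left SoxF targets and partners at -0.12. With AMI-1 the medians ran from -0.06 for TGF-beta genes to 0.06 for other KLF and SP genes. Among the cartilage targets, SOX6 (0.68), COL11A2 (0.76), COL9A3 (2.42) and COMP (2.51) had low mean CPM in control. SOX6 is also counted among the other SOX genes.

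**Figure D4:**
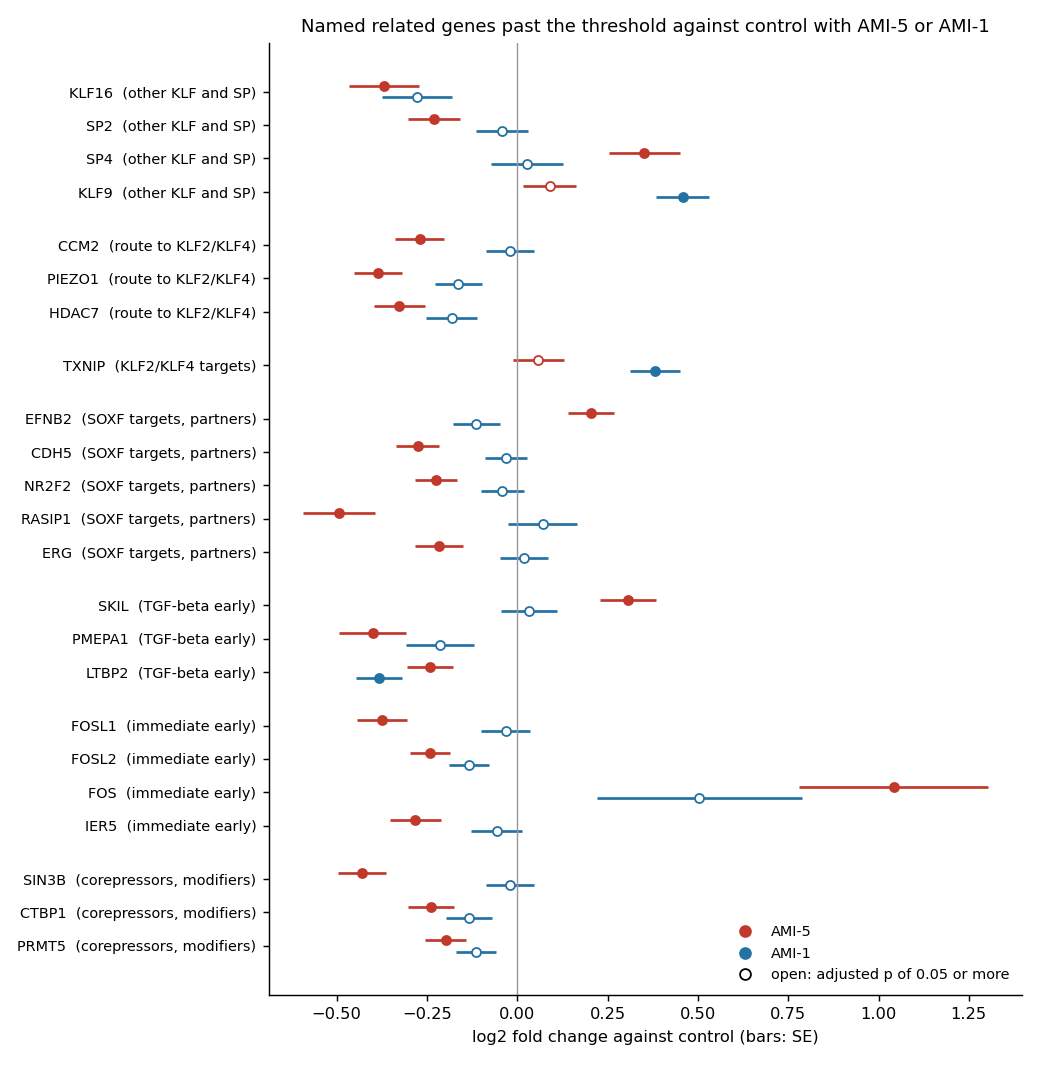
Log2 fold changes against control with AMI-5 (red) and AMI-1 (blue) for 23 named genes of the related lists that passed the threshold against control with either compound, with bars of 1 SE. Filled points passed the threshold of an adjusted p under 0.05 and open points did not; SIN3B is filled with AMI-5 at -0.43 and open with AMI-1 at -0.02.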

How the data were processed

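Poly-A RNA libraries of HMEC-1 cells were compared, 3 with AMI-5, 3 with AMI-1 and 3 with DMSO, grouped by the labels. The authors deposited raw read counts per gene in a table for each compound, with 18598 genes for AMI-5 and 18385 for AMI-1, the smallest mean count being 10 in each. The submitters' processing notes name BWA, bedtools and hg19. Versions, annotation and strand setting were not stated there or in the labels, so overlapping and antisense genes may share reads. Control counts were the same in both tables (0 values differed), and the 18293 genes in both tables were used.

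The test was edgeR 4.0.16 (R 4.3.3), quasi-likelihood F, with TMM, filterByExpr by group (18284 genes left), replicate number as a block and all 9 libraries in 1 fit. P-values were adjusted by Benjamini-Hochberg over all genes at 0.05. Standard errors were derived from the F statistic, and intervals are at 95%. Log2 CPM used a prior count of 2. The block is in the main fit because the genes were to be described in pairs by number. Earlier results of these data, in which same-numbered libraries deviated together, were a further reason. Pairing was checked on deviations from group means: the 9 pairs of libraries with the same number correlated at 0.431 to 0.871 and the 18 with different numbers at -0.804 to 0.204. The biological coefficient of variation was 5.64% with the block and 23.7% without. In the labels' descriptions and the column headers, names of same-numbered libraries open with a common code, whose meaning is not stated.

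The alternatives were no block, GC correction, DESeq2 1.42.0 size factors, its Wald test, no filter, 6 libraries, each compound's own table and leaving out each library. Leaving out the 3 libraries numbered 2, and DESeq2 without the block, were added after the data were seen. GC correction used a lowess curve (span 0.3) per library over the 14761 genes whose average log2 CPM exceeded 1. GC content, of the longest GENCODE transcript, was known for 17505 genes (95.7%). The genes described and all lists were chosen with earlier results of these data known. Named from each list were up to 4 genes with the lowest adjusted p for AMI-5, 2 for AMI-1 and 2 for the direct comparison, and for each SOX or KLF gene the 3 most alike in log2 CPM at a mean of at least 5 CPM. A few genes that this rule names are not reported here.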

Additional observations from a re-analysis of the deposited data

How the results depend on the processing

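Without the replicate block, edgeR called 0 genes in each comparison, against 2002 with AMI-5, 75 with AMI-1 and 932 between the compounds. Unadjusted p-values under 0.05 then numbered 485, 187 and 478, and DESeq2 without the block called 19, 3 and 36 and 0 of the 10 SOX and KLF genes in each. Of genes found in a single table, the block called 35 with AMI-5 and 2 with AMI-1, and 0 of either were called without it. GC correction with the block called 623 genes with AMI-1 (238 higher and 385 lower, against 42 and 33) and 2156 between the compounds (905 and 1251, against 296 and 636), and 2 of the 10 genes with AMI-5, 2 with AMI-1 and 1 between the compounds. With only the 6 libraries compared, AMI-5 gave 4372 genes and 5 of the 10, AMI-1 gave 0 of the 10 and the direct comparison 2. The AMI-5 table as deposited gave 4449 and 5. DESeq2 with the block called 0 of the 10 with AMI-1. Without the 3 libraries numbered 2, AMI-1 gave 203 genes and the direct comparison 453.

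Leaving out 1 library gave 155 (without AMI-5 replicate 1) to 4283 (without AMI-1 replicate 3) genes with AMI-5 and 0 to 4 of the 10, 14 (without AMI-1 replicate 1) to 354 (without AMI-1 replicate 2) with AMI-1 and 0 to 1, and 192 (without AMI-5 replicate 1) to 3465 (without AMI-1 replicate 3) between the compounds and 0 to 2. The cause of these shifts was not tested. SOX9 stayed below 0 with both compounds in all 18 alternatives. No difference called in the blocked fit changed direction. Several differences not called there did. KLF2 did with AMI-1 (0.21 and called with GC correction, -0.03 without the libraries numbered 2) and with AMI-5 (0.04 with GC correction, below 0 and called with 6 libraries). In some settings KLF10, SOX17 and SOX18 also did with AMI-1, and KLF4 and SOX18 with AMI-5. Between the compounds SOX4, SOX7, SOX9, SOX12 and SOX18 did. With 3 libraries per group, a fit without 1 library leaves groups of 2.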
